A study of Homo sapiens with 12 samples.

Results

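The AP-1 and immediate early genes considered here are JUN, JUNB, JUND, FOS, FOSB, FOSL1, FOSL2, EGR1, IER2 and IER3. They were taken as the rows of a gene count matrix whose Ensembl identifiers map to these symbols, and all 10 of 10 were found among 57500 rows. All 10 also passed the filter on low counts and were among the 15805 genes tested. In GRCh38 with GENCODE release 29, the JUN family genes lie on 2 chromosomes, JUN at chr1:58780788-58784327, JUNB at chr19:12791496-12793315 and JUND at chr19:18279760-18281622. The FOS family genes are FOS at chr14:75278774-75282230, FOSB at chr19:45467995-45475179, FOSL1 at chr11:65892049-65900573 and FOSL2 at chr2:28392448-28417312. The others are EGR1 at chr5:138465490-138469315, IER2 at chr19:13150415-13154908 and IER3 at chr6:30743199-30744554. JUN, JUNB, JUND and IER3 are annotated as 1 continuous exon block each.

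The cells were OE33, an established human epithelial line from esophageal adenocarcinoma, and poly(A) RNA was sequenced in 4 groups of 3 libraries. Parental cells were untreated. The rABS cells were the survivors of a 20 min exposure to 200 µM acidified bile salts at pH 5.5, given on each of 15 days. The rABS+shCtrl cells (shCtrl) were rABS cells that stably carried a non-targeting shRNA, and the rABS+shAPE1 cells (shAPE1) were rABS cells that stably carried an shRNA against APE1. All 3 groups other than Parental therefore share the bile exposure, and both hairpin groups share a vector and its delivery, which rABS and Parental lack. The labels describe 1 APE1 hairpin and no mock-exposed group, and whether the transduced cells were clones or pools is not given in the sources used here. The time between the last exposure or change of medium and lysis is not given either. The study describes the 3 libraries of a group as independent biological replicates. Comparing the groups asks what differed in survivors of repeated bile and acid, and what then differed when APE1 was lowered in them.

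AP-1 is a dimer of basic leucine zipper proteins. JUN family proteins can pair with each other or with FOS family proteins, whereas FOS family proteins need a JUN family partner to bind DNA well. The genes of FOS, FOSB, JUN, EGR1 and IER2 are among the classical immediate early genes, and this is not a complete list of those among the members. Serum, growth factors, MAP kinase signalling and stress switch such genes on within minutes, without new protein synthesis, and their mRNAs are short-lived. FOSL1 and FOSL2 lack the strong activation domain of FOS and FOSB and are often high in epithelial tumour cells. EGR1 is a zinc finger factor, IER2 is a small nuclear early response protein, and IER3 is an early response protein linked to survival under stress rather than a DNA-binding factor. APE1, encoded by APEX1, is a base excision repair endonuclease that is also known as Ref-1, because it can keep a conserved cysteine in the DNA-binding region of JUN and FOS proteins reduced.

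Promoter sequences are shown for the 6 members whose proximal promoter held a cyclic AMP response motif, a variant of it or a serum response motif. These members did not share 1 course in the measurements: FOS, FOSB, JUN and EGR1 fell most from rABS to shCtrl. In shAPE1 against shCtrl, JUN, JUND and FOSL2 rose, FOS and EGR1 fell, and FOSB was not called. Of the 10 members, 8 had an entry in the RefSeq promoter table of build GRCh38.p14. Each line gives the 150 bases before the RefSeq start site, 5′ to 3′ on the strand of the gene, with matches in capitals. The RefSeq start can differ from that of the GENCODE gene. The JUN and FOSL2 windows lie wholly inside the GENCODE gene, and the FOS window runs past its start. Distances below are from the RefSeq start only. The motifs in capitals are TGACGT or its reverse complement ACGTCA, the longer TGACNTCA, and the CArG box bound by serum response factor.
FOS promoter, chr14:75278678-75278827, plus strand: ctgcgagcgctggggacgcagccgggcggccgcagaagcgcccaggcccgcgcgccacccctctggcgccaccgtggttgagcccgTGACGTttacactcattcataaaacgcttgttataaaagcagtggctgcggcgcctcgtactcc
FOSB promoter, chr19:45467846-45467995, plus strand: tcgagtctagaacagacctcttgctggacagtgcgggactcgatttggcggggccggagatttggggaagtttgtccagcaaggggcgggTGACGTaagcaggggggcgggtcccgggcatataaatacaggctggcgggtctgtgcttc
FOSL2 promoter, chr2:28392708-28392857, plus strand: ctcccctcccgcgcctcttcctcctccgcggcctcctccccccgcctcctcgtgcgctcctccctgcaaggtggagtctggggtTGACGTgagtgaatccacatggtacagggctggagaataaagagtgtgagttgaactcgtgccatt
EGR1 promoter, chr5:138465329-138465478, plus strand: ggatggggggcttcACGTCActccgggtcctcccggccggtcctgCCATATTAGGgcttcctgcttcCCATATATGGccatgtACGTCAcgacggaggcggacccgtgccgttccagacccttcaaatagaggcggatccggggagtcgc
JUN promoter, chr1:58784048-58784197, minus strand: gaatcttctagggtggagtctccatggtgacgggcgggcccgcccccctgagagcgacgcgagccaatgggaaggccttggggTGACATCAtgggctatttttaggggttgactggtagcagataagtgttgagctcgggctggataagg
JUND promoter, chr19:18281623-18281772, minus strand: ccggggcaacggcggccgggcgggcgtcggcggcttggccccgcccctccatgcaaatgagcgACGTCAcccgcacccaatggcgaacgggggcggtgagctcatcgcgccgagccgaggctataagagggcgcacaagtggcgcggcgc
Over the 250 bases before the start site, on both strands, TGACGT was found in 5 of the 8 members (JUND, FOS, FOSB, FOSL2 and EGR1) and in 7.1% of 35116 promoters. In FOS it lay 64 to 59 bases before the start, in FOSB 60 to 55 bases and in FOSL2 66 to 61 bases before it. TGACNTCA was found in JUN and JUND (2 of 8, against 6.87% of promoters), and in JUND it overlaps a TGACGT match that lies further from the start than the printed window. Within these 250 bases, CArG boxes were found in EGR1 alone among the 8 members, at 2 places, against 1.16% of promoters. TGANTCA, which is 1 form of the AP-1 motif and not all of them, was found in 0 of the 8 members (6.57% of promoters). The EGR1-type motif GCGNGGGCG was found in EGR1 alone (8.41%). A match describes letters in this window only and is not evidence of binding. Bases further from the start were not searched, so FOS and the other members may hold such motifs there.

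Library totals ran from 15736087 to 23010377 counts. Mitochondrial genes took 1.90% to 4.22% of counts, and the correlation of log2 CPM between libraries of 1 group was 0.987 to 0.991. APEX1 checked the label of the shAPE1 group: its level in CPM (reads of a gene scaled to library size, here with TMM factors) was 52.9, 54.3 and 56.9 CPM in the 3 Parental libraries, 81.8, 84.5 and 79.9 in the 3 of rABS, 62.0, 56.5 and 60.9 with the control hairpin and 4.42, 4.50 and 5.88 with the APE1 hairpin. It was 12.2-fold lower in shAPE1 than in shCtrl (adjusted p = 3.75e-22, edgeR quasi-likelihood test). Parental and shCtrl overlapped (adjusted p = 0.196, same test), so APEX1 does not check the labels of the other groups. The 6 epithelial markers summed to between 10670 and 16260 CPM in every library. The 6 fibroblast markers summed to at most 27.1 CPM with LUM at 0, the 6 immune markers to at most 11.9 CPM and the 4 endothelial markers to at most 0.826 CPM. Of these, the fibroblast sum was 20.9 to 27.1 CPM in Parental and 3.53 to 10.0 CPM in the other groups, nearly all of it from COL1A1.

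Across the 4 groups the members followed different courses. FOS, FOSB, JUN and EGR1 dropped mainly between rABS and shCtrl, where FOSB was 8.52-fold and FOS 6.88-fold lower. JUNB, FOSL2, IER3 and FOSL1 dropped more between Parental and rABS, by 2.08-fold, 1.96-fold, 1.85-fold and 1.35-fold, than between rABS and shCtrl. JUND and IER2 were first lower in shCtrl. Between the hairpin groups the members split, with JUN 2.00-fold, JUND 2.17-fold and FOSL2 1.42-fold higher in shAPE1 and FOS, FOSL1, EGR1 and IER2 1.35-fold to 1.66-fold lower. Fold changes and p-values are from edgeR's quasi-likelihood test on 3 libraries a group, with Benjamini-Hochberg adjustment over all 15805 genes, and a gene is said to rise or fall where the adjusted p was under 0.05. In bulk RNA, fewer cells with a transcript and less of it per cell cannot be told apart.

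**Figure D1:**
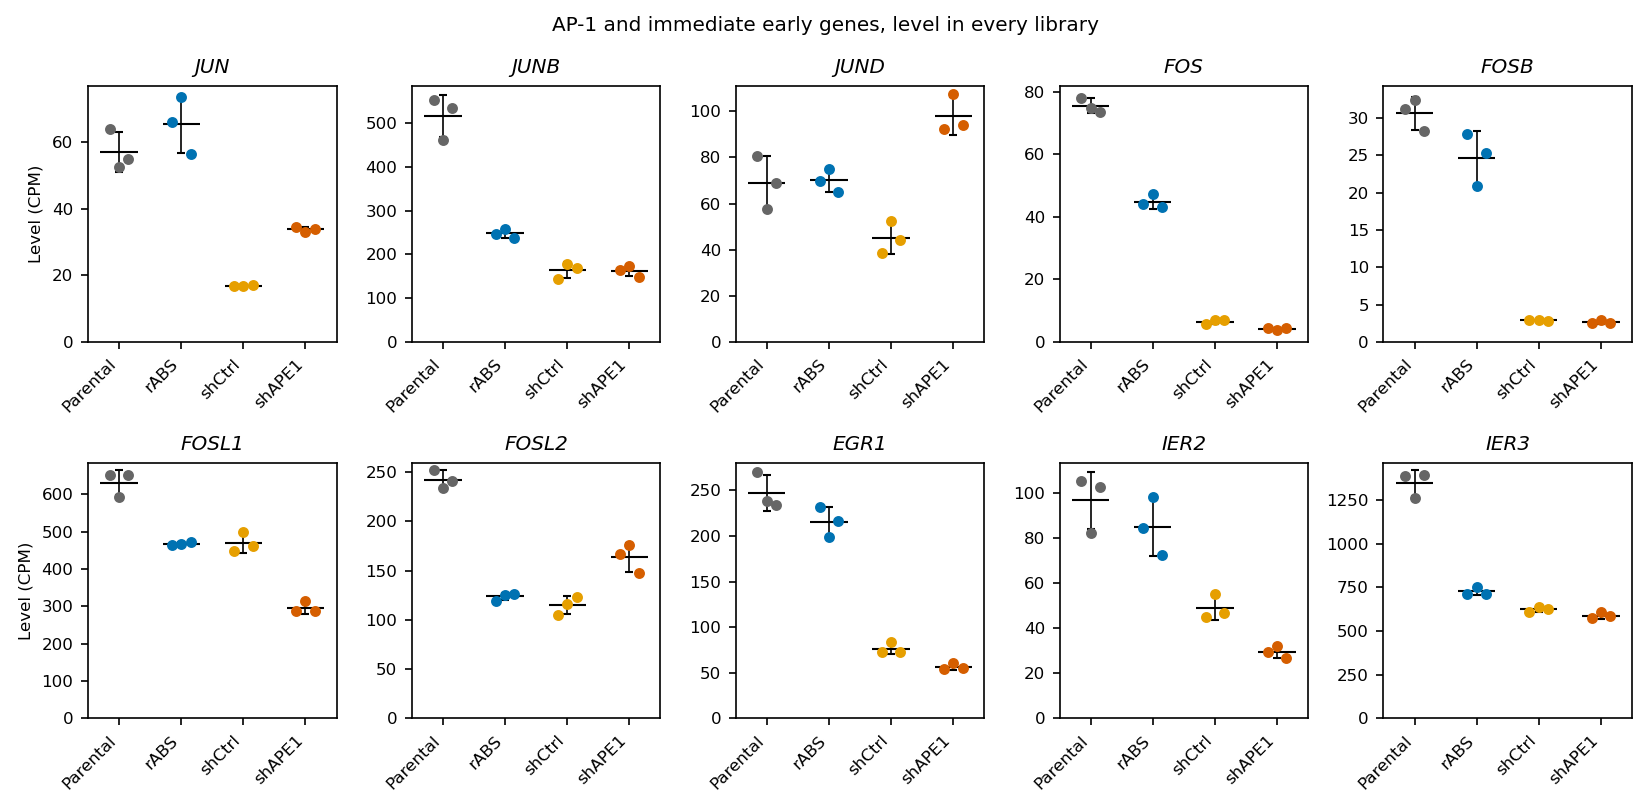
Level of each member in the 12 libraries, in CPM on a linear axis, by group. Points are libraries, horizontal lines are group means and error bars are SD. FOS and FOSB sit below 7 CPM in every hairpin library, against 20.8 CPM or more in the Parental and rABS libraries.

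JUN, the founding AP-1 subunit, stood at 63.8, 52.6 and 54.8 CPM in untreated cells, 66.0, 73.6 and 56.4 in the untransduced survivors, 16.8, 16.8 and 17.2 in shCtrl libraries and 34.4, 33.1 and 33.9 in shAPE1 libraries. Every hairpin library lay below every library without a hairpin, and the shAPE1 libraries lay above the shCtrl libraries without overlap. JUN fell 3.86-fold from rABS to shCtrl (log2 change -1.95 ± 0.10 SE, adjusted p = 7.02e-16) and was 2.00-fold higher in shAPE1 than in shCtrl (1.00 ± 0.10, adjusted p = 1.36e-09). It remained 1.69-fold below Parental in shAPE1. Between rABS and Parental the libraries overlapped, and the log2 difference of 0.20 had a 95% interval of 0.01 to 0.38 (adjusted p = 0.0635). That difference passed the threshold without Parental replicate 1 (0.30, adjusted p = 0.00966) and without rABS replicate 3 (0.30, adjusted p = 0.00828).

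JUNB, which often opposes JUN in proliferation, was measured at 551, 462 and 534 CPM in the 3 Parental libraries, 246, 259 and 238 in the 3 of rABS, 143, 179 and 168 with the control hairpin and 165, 174 and 149 with the APE1 hairpin. The Parental libraries were the highest, rABS came next, and the hairpin groups overlapped. JUNB fell 2.08-fold in rABS (log2 change -1.06 ± 0.08 SE, adjusted p = 2.96e-13) and a further 1.51-fold in shCtrl (adjusted p = 4.30e-07). With the APE1 hairpin the log2 difference was -0.01 with a 95% interval of -0.17 to 0.15 (adjusted p = 0.956). The exons of JUNB overlap those of HOOK2 on the opposite strand, which held 166 to 444 counts a library against at least 2384 for JUNB.

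JUND, the family member that is usually expressed without stimulation, had 80.8, 57.5 and 68.8 CPM in untreated cells, 70.0, 75.2 and 65.2 in the untransduced survivors, 38.4, 52.6 and 44.2 in shCtrl libraries and 92.2, 107.5 and 94.1 in shAPE1 libraries. Its shAPE1 libraries were above all others and its shCtrl libraries below all others. JUND was 1.55-fold lower in shCtrl than in rABS (log2 change -0.63 ± 0.11 SE, adjusted p = 3.01e-05) and 2.17-fold higher in shAPE1 than in shCtrl (1.12 ± 0.11, adjusted p = 1.77e-09). It was the 1 member that stood higher in shAPE1 than in Parental, by 1.42-fold (adjusted p = 0.000154). Between rABS and Parental its libraries overlapped and the log2 difference of 0.03 had a 95% interval of -0.19 to 0.24.

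FOS, the prototype serum-induced gene, covered the widest range. Its level was 78.2, 74.9 and 73.5 CPM in the 3 Parental libraries, 44.1, 47.5 and 43.1 in the 3 of rABS, 5.76, 6.87 and 6.87 with the control hairpin and 4.37, 3.66 and 4.44 with the APE1 hairpin. No 2 groups overlapped, and the group means spanned 4.15 on the log2 scale, the most of any member. FOS fell 1.68-fold from Parental to rABS (log2 change -0.75 ± 0.09 SE, adjusted p = 6.16e-09), 6.88-fold from rABS to shCtrl (-2.78 ± 0.10, adjusted p = 6.45e-19) and 1.57-fold from shCtrl to shAPE1 (-0.65 ± 0.13, adjusted p = 0.000176). The hairpin libraries still held 65 to 162 FOS counts each, and shAPE1 was 18.2-fold below Parental.

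FOSB, the close relative of FOS, followed a similar course, with 31.2, 32.4 and 28.2 CPM in untreated cells, 27.9, 20.8 and 25.3 in the untransduced survivors, 2.96, 2.88 and 2.84 in shCtrl libraries and 2.51, 2.87 and 2.5 in shAPE1 libraries. The hairpin groups lay far below the others, at 40 to 68 counts a library, and overlapped each other. The fall from rABS to shCtrl was 8.52-fold (log2 change -3.09 ± 0.14 SE, adjusted p = 2.85e-17), while shAPE1 and shCtrl differed by a log2 value of -0.14 with a 95% interval of -0.51 to 0.23 (adjusted p = 0.598). FOSB was 1.24-fold lower in rABS than in Parental (adjusted p = 0.0148), a call that was lost without Parental replicate 1 (adjusted p = 0.0581), Parental replicate 2 (0.0663) or rABS replicate 2 (0.154). The gene lies within the ERCC1 locus of the opposite strand, but their exons do not overlap.

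FOSL1, which encodes FRA-1, had 652, 592 and 652 CPM in the 3 Parental libraries, 464, 468 and 472 in the 3 of rABS, 448, 498 and 461 with the control hairpin and 287, 316 and 288 with the APE1 hairpin. The rABS libraries fell within the range of the shCtrl libraries, with Parental above and shAPE1 below both. FOSL1 fell 1.35-fold in rABS (log2 change -0.43 ± 0.07 SE, adjusted p = 9.14e-07) and 1.58-fold in shAPE1 against shCtrl (-0.66 ± 0.07, adjusted p = 1.23e-09). The shCtrl and rABS groups differed by 0.00 with a 95% interval of -0.13 to 0.14.

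FOSL2, which encodes FRA-2, had 252, 233 and 241 CPM in untreated cells, 119, 125 and 127 in the untransduced survivors, 105, 117 and 123 in shCtrl libraries and 167, 176 and 147 in shAPE1 libraries. Parental was the highest group and shAPE1 the next, while rABS and shCtrl overlapped. FOSL2 fell 1.96-fold in rABS (log2 change -0.97 ± 0.07 SE, adjusted p = 4.53e-13). It was 1.42-fold higher in shAPE1 than in shCtrl (0.51 ± 0.07, adjusted p = 1.26e-06), opposite to FOSL1. The log2 difference between shCtrl and rABS was -0.11 with a 95% interval of -0.26 to 0.04 (adjusted p = 0.271).

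EGR1 had 269.6, 238 and 234 CPM in the 3 Parental libraries, 231, 199 and 216 in the 3 of rABS, 73.1, 83.9 and 72.7 with the control hairpin and 53.9, 61.0 and 54.9 with the APE1 hairpin. No 2 groups overlapped, and the gap between the rABS and shCtrl libraries was by far the widest. EGR1 fell 2.81-fold from rABS to shCtrl (log2 change -1.49 ± 0.08 SE, adjusted p = 1.56e-15) and 1.35-fold from shCtrl to shAPE1 (-0.44 ± 0.08, adjusted p = 4.95e-05). The 1.15-fold lower level in rABS than in Parental passed the threshold in all libraries (adjusted p = 0.0240). It did not pass without Parental replicate 1 (adjusted p = 0.258), rABS replicate 2 (0.147) or rABS replicate 3 (0.0506).

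IER2 had 105, 82.1 and 103 CPM in untreated cells, 84.2, 97.8 and 72.4 in the untransduced survivors, 45, 55 and 46.6 in shCtrl libraries and 29.3, 32.1 and 26.8 in shAPE1 libraries. Parental and rABS overlapped, and shCtrl and then shAPE1 lay below them. IER2 fell 1.73-fold from rABS to shCtrl (log2 change -0.79 ± 0.10 SE, adjusted p = 3.09e-07) and 1.66-fold from shCtrl to shAPE1 (-0.73 ± 0.11, adjusted p = 1.80e-06). For rABS against Parental the log2 difference was -0.19 with a 95% interval of -0.39 to 0.02 (adjusted p = 0.110). It passed the threshold without Parental replicate 2 (-0.29, adjusted p = 0.0102) or rABS replicate 2 (-0.30, adjusted p = 0.0148).

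IER3 was the most abundant member, also per length at 994 CPM per kilobase of exon in Parental. It had 1387, 1262 and 1393 CPM in the 3 Parental libraries, 713, 753 and 714 in the 3 of rABS, 607, 637 and 627 with the control hairpin and 572, 610.5 and 583 with the APE1 hairpin. Parental lay well above the rest and the hairpin groups overlapped. IER3 fell 1.85-fold in rABS (log2 change -0.89 ± 0.06 SE, adjusted p = 8.55e-14) and 1.17-fold from rABS to shCtrl (-0.22 ± 0.06, adjusted p = 0.00603). The log2 difference between shAPE1 and shCtrl was -0.08 with a 95% interval of -0.21 to 0.04 (adjusted p = 0.330). Its exons overlap the antisense gene IER3-AS1, which held 3 to 75 counts a library. The strand setting of the counting is not given in the sources used here.

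As a group, 7 of 10 members fell and 0 rose in rABS against Parental, where 29.9% of all tested genes were lower and 29.9% higher. The falls of FOSB and EGR1, and the lack of a called rise in JUN, depended on single libraries, as given above. The median log2 change was -0.37 over the members and -0.01 over all genes. JUNB alone fell at least 2-fold, against 9.31% of genes. From rABS to shCtrl 8 members fell and 0 rose, against 18.6% of genes lower and 17.9% higher, with medians of -0.71 and 0.02. JUN, FOS, FOSB and EGR1 fell at least 2-fold in that comparison, where 1.53% of genes did. Between shAPE1 and shCtrl 3 members rose and 4 fell, against 17.8% and 18.8% of genes, with medians of -0.11 and -0.02. JUND alone rose at least 2-fold (1.41% of genes), with JUN just short of that at 1.997-fold. The rABS libraries enter both the first and the second of these comparisons, and the shCtrl libraries enter both the second and the third.

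**Figure D2:**
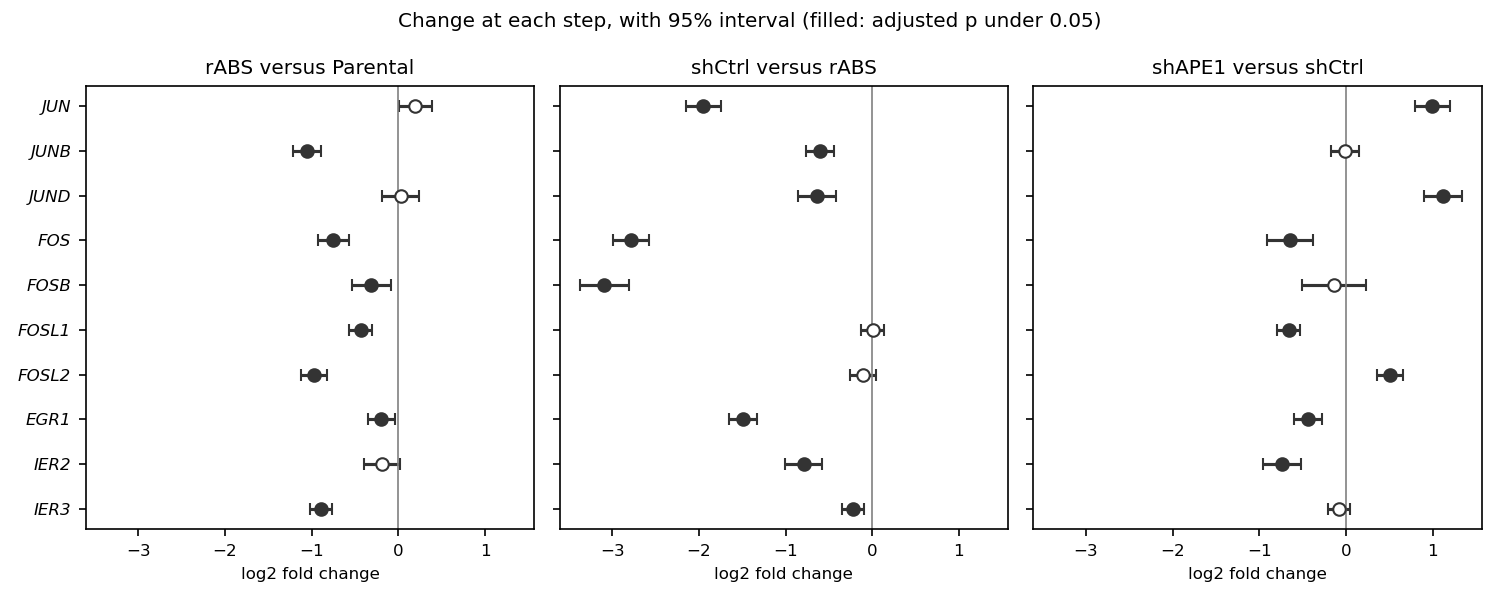
Log2 fold change of each member with its 95% interval in the 3 main comparisons. FOS, FOSB, JUN and EGR1 lie furthest below 0 in shCtrl against rABS, and JUN, JUND and FOSL2 lie above 0 in shAPE1 against shCtrl.

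Against Parental, all 10 members were lower in shCtrl, where 26.1% of genes were lower and 27% higher. FOS was 11.6-fold, FOSB 10.6-fold, JUN 3.36-fold, EGR1 3.23-fold and JUNB 3.15-fold lower, and 7 members were at least 2-fold lower, as were 5.31% of genes. In shAPE1 against Parental 9 members were lower and JUND was higher, against 27.5% and 26.2% of genes. In shAPE1 against untransduced rABS 8 were lower and 2 were higher, against 26.2% and 23.8% of genes. The 2 were JUND at 1.40-fold and FOSL2 at 1.32-fold.

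Whether a member dropped more at the exposure or at the vector step was tested as the difference between the log2 change from rABS to shCtrl and that from Parental to rABS, in the same edgeR fit. This test was added after the data were seen. All 10 members passed it, 6 with a lower second change and 4 with a higher one, against 26.8% and 25.9% of genes. The difference, second change less first, was -2.78 ± 0.21 SE on the log2 scale for FOSB (adjusted p = 4.82e-13), -2.14 ± 0.16 for JUN (4.46e-13), -2.03 ± 0.16 for FOS (1.84e-12) and -1.29 ± 0.13 for EGR1 (4.08e-10). JUND (-0.66) and IER2 (-0.61) were also lower, and IER2 lost its call without rABS replicate 2 (-0.38, adjusted p = 0.0931). FOSL2 (0.86), IER3 (0.67), JUNB (0.46) and FOSL1 (0.44) had the larger drop at the exposure. The shCtrl group differs from rABS in the vector, the transduction and the culture that followed, and these cannot be told apart.

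On a scale per length, CPM per kilobase of annotated exon, the composition of the families also differed. JUN family transcripts summed to 336.5 ± 33.4 (SD, n = 3) in Parental, 192.1 ± 10.9 in rABS, 118.8 ± 13.7 in shCtrl and 151.5 ± 10.5 in shAPE1. JUNB made up 84.2% of that sum in Parental, 70.8% in rABS, 75.6% in shCtrl and 59.0% in shAPE1. The share of JUND was 11%, 19.6%, 20.3% and 34.7% in the same order, and its shAPE1 libraries (33.1% to 35.6%) lay above every other library. JUN had the remaining 4.79%, 9.58%, 4.06% and 6.33%.

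FOS family transcripts summed to 397.5 ± 19.3 CPM per kilobase (SD, n = 3) in Parental, 283.5 ± 2.16 in rABS, 267.2 ± 14.4 in shCtrl and 181.9 ± 10.2 in shAPE1. FOSL1 carried most of it throughout, with 84.2% in Parental, 87.5% in rABS, 93.1% in shCtrl and 86.5% in shAPE1. FOS and FOSB together were a small part in every group: FOS had 5.88%, 4.89%, 0.751% and 0.710%, and FOSB 1.39%, 1.57%, 0.195% and 0.260%. FOSL2 had 8.52%, 6.09%, 6.01% and 12.5%. The large folds of FOS and FOSB therefore concern transcripts that were minor within their family, while the changes of FOSL1 and JUNB concern its most abundant ones.

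**Figure D3:**
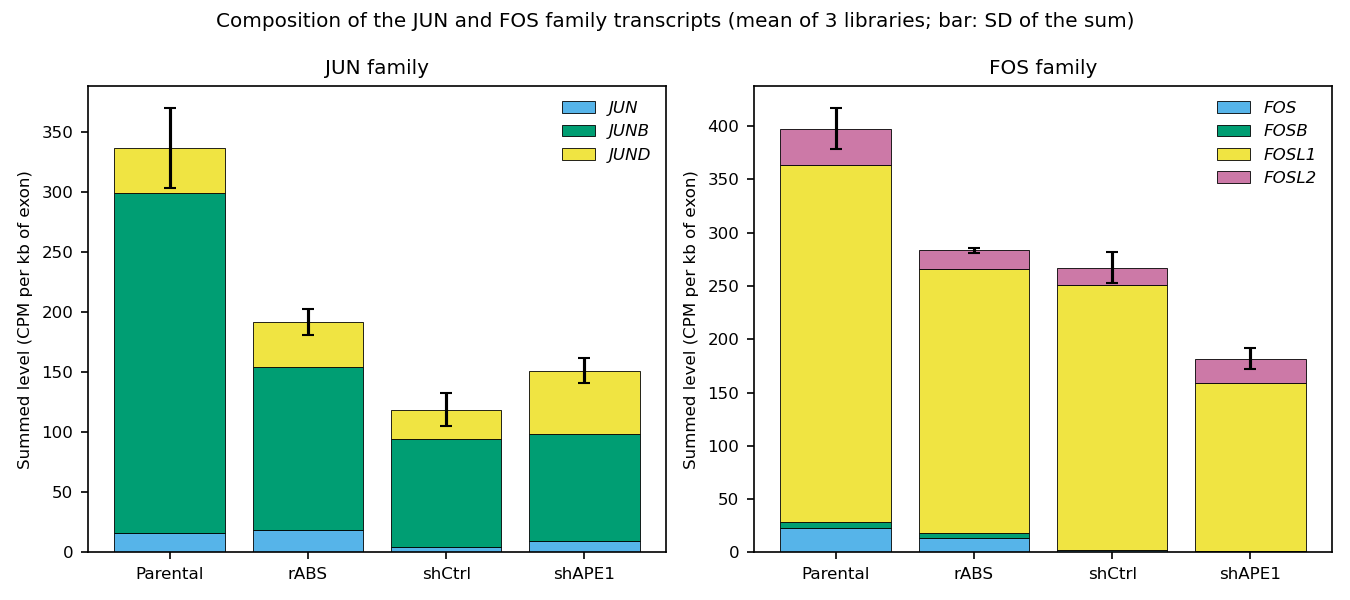
Mean CPM per kilobase of exon of each JUN family and FOS family member by group, stacked. JUNB and FOSL1 form the largest block of their family in all 4 groups, and the JUND block is largest in shAPE1.

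Replicate spread bears on how small a difference could be called. The SD of log2 CPM around the group means was 0.05 for IER3 and 0.07 for FOSL1, at percentiles 2.94 and 7.48 of all tested genes, whose median was 0.155. JUND and IER2 were the noisiest members at 0.18 each, at percentiles 58.1 and 56.5. The other 6 members lay between 0.10 and 0.13.

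By shape over the 4 group means, measured as the root mean square difference of centred log2 CPM, the closest pairs of members were JUNB with IER3 (0.22), FOS with FOSB (0.25), FOSL1 with IER3 (0.27), FOSL2 with IER3 (0.28) and EGR1 with IER2 (0.30). The pair least alike was JUND with FOS (1.83), and FOS with FOSL2 differed by 1.61. The promoters of JUND, FOS and FOSL2 hold TGACGT, and that of IER2 held no match to the motifs searched, within the 250 bases before the start. Whether these motifs bear on the courses was not tested. Among 11009 other genes, the closest to JUN were CXCL2 (0.22), HSPA5 (0.31) and ARRDC3 (0.33), and the closest to EGR1 were CCRL2 (0.14), RNVU1-6 (0.17) and CCN2 (0.17). FOSL1 was nearest to VPS36, UMAD1 and GLCE, each at 0.03. FOS was nearest to the histone genes H4C11 (0.35) and H4C12 (0.37) and to MMP1 (0.40). With 4 points per gene these are descriptions, and many genes can share so simple a shape. Histone transcripts mostly lack a poly(A) tail, and the histone share of counts was 0.845% to 1.03% in Parental, 1.78% to 2.07% in rABS, 0.887% to 0.921% in shCtrl and 0.667% to 0.782% in shAPE1, while H4C11 averaged 44.6, 18.2, 2.81 and 3.09 CPM.

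Genes related to the members are given next, first basic leucine zipper proteins, most of which can pair with JUN or FOS proteins. This list also holds the related factors CREB1 and CREM. Their counts stand beside the shares of all genes given above: 29.9% higher and 29.9% lower in rABS against Parental, 17.9% and 18.6% in shCtrl against rABS, and 17.8% and 18.8% in shAPE1 against shCtrl. Of the 12 genes in this list, 8 fell and 0 rose in rABS (median log2 change -0.42). In shCtrl against rABS 2 rose and 1 fell (-0.04), and in shAPE1 against shCtrl 4 rose and 2 fell (0.06). JDP2, a repressor that pairs with JUN proteins, had the largest changes: it averaged 47.0 CPM in Parental, 4.38 in rABS, 15.4 in shCtrl and 4.55 in shAPE1. It was 10.7-fold lower in rABS (adjusted p = 1.62e-21), 3.49-fold higher in shCtrl than in rABS (7.14e-13) and 3.36-fold lower in shAPE1 than in shCtrl (7.75e-13). In rABS, ATF3 was also 4.27-fold, MAFF 2.34-fold and MAFG 1.75-fold lower, whereas MAFG was 1.21-fold higher and CREM 1.46-fold lower in shCtrl. With the APE1 hairpin ATF7 and CREM were 1.60-fold and 1.78-fold higher and CREB1 was 1.48-fold lower.

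Among 27 other immediate early genes, 4 rose and 13 fell in rABS, with a median log2 change of -0.45. From rABS to shCtrl 4 rose and 16 fell (median -0.44), and from shCtrl to shAPE1 9 rose and 4 fell (median -0.06). DUSP1, a phosphatase that switches off MAP kinases, averaged 81.6 CPM in Parental, 27.7 in rABS, 12 in shCtrl and 24.6 in shAPE1. It was in turn 2.94-fold lower, 2.32-fold lower and 2.05-fold higher than in the group before. In rABS PHLDA1, GADD45B and ZFP36 were 2.29-fold, 4.15-fold and 2.28-fold lower. In shCtrl RHOB and KLF10 were 1.78-fold and 1.66-fold lower and GADD45B 2.16-fold higher. With the APE1 hairpin KLF6 was 2.38-fold, MYC 1.57-fold and TRIB1 1.58-fold higher.

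The transcripts of 20 MAP kinase pathway and serum response factors moved in both directions. In rABS 7 rose and 6 fell, beside 29.9% of all genes in each direction, which is near the share in this list. In shCtrl against rABS 6 rose and 4 fell, and in shAPE1 against shCtrl 6 rose and 3 fell, with medians of 0.00, 0.00 and 0.11. SRF itself, which binds CArG boxes, was 1.43-fold lower in rABS and 1.46-fold higher in shAPE1 than in shCtrl. RPS6KA4, which encodes the kinase MSK2, was 2.84-fold higher in rABS and 1.91-fold lower in shCtrl than in rABS. In rABS MAPK8 (JNK1) was 1.94-fold lower and RPS6KA1 1.64-fold higher. In shCtrl ELK4 and MAPK3 were 1.48-fold and 1.33-fold higher and MAP2K1 1.30-fold lower than in rABS, and with the APE1 hairpin MRTFA was 1.32-fold higher and MAPK9 and ELK1 were each 1.26-fold lower. These are mRNA levels, and kinase activity was not measured.

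Of 22 genes known as AP-1 targets, 17 could be tested. In rABS 9 rose and 5 fell (median log2 change 0.19), in shCtrl against rABS 3 rose and 11 fell (-0.35), and in shAPE1 against shCtrl 1 rose and 7 fell (-0.11). The collagenase gene MMP1 was 52.2, 56 and 58.9 CPM in untreated cells, 29, 22.9 and 27.6 in the untransduced survivors, 8.40, 6.62 and 7.17 in shCtrl libraries and 2.46, 1.86 and 2.56 in shAPE1 libraries. Like FOS, it was lower at each step with no overlap, by 2.10-fold, 3.60-fold and 3.21-fold. In rABS MMP7 was 5.46-fold higher, and VEGFA and PLAU were 4.85-fold and 3.89-fold lower. CD44 was 1.62-fold lower in shCtrl than in rABS, and MT2A and CCND1 were 2.67-fold and 1.45-fold lower in shAPE1 than in shCtrl.

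The 9 genes for AP-1 redox control and turnover include APEX1. In rABS 3 rose and 3 fell, with a median log2 change of -0.23, again near the 29.9% of all genes in each direction. TXNRD1 (thioredoxin reductase), ITCH and COP1 (ubiquitin ligases for JUN proteins) were 2.17-fold, 2.05-fold and 1.60-fold lower. From rABS to shCtrl 2 rose and 4 fell (median -0.01), and ITCH was 1.26-fold higher while APEX1 and TXNRD1 were 1.37-fold and 1.19-fold lower. Between shAPE1 and shCtrl 2 rose and 2 fell (median 0.01): ITCH and DET1 were 1.29-fold and 1.34-fold higher, and TXNRD1 was 1.35-fold lower beside APEX1.

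Heat shock genes gave a measure of a stress programme in the same libraries. In rABS 10 of 12 rose and 0 fell, with a median log2 change of 0.94, in the comparison in which 7 members fell. Their summed level was 5375 to 5505 CPM in Parental, 9232 to 9309 in rABS, 8465 to 8963 in shCtrl and 7630 to 8593 in shAPE1. In shCtrl against rABS, where FOS and FOSB fell most, 1 heat shock gene rose and 3 fell. Their part in the members' changes was not tested.

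**Figure D4:**
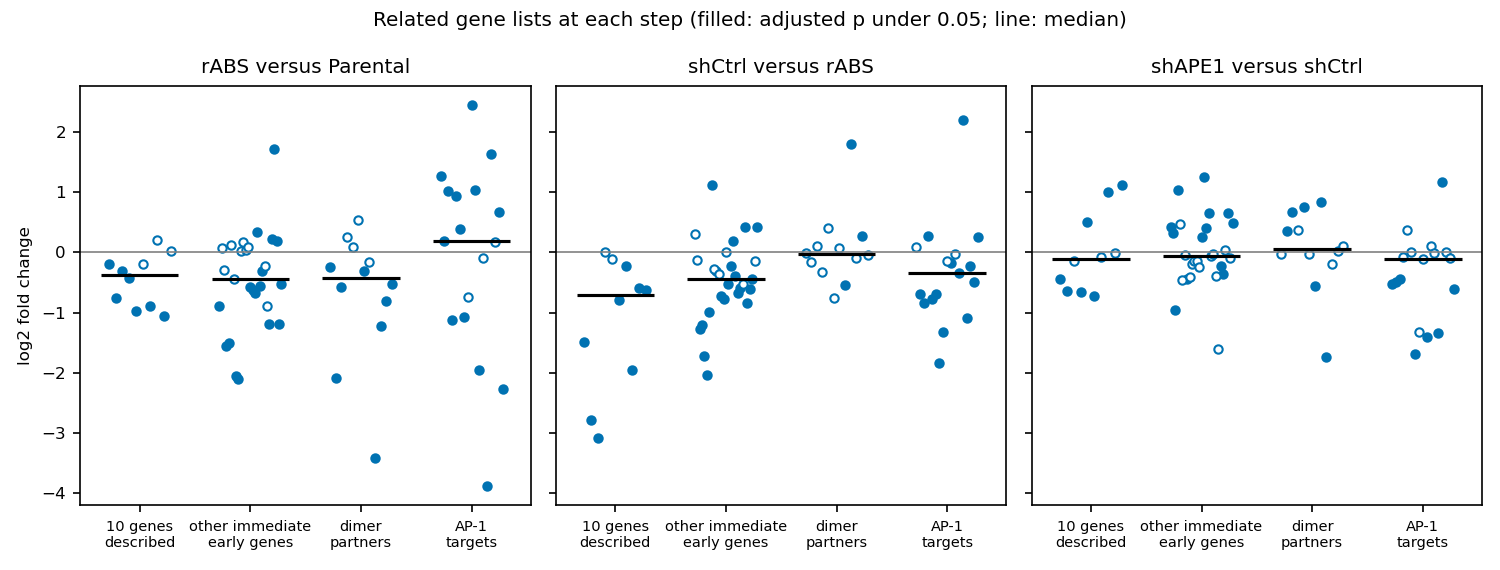
Log2 fold changes of the genes of each list in the 3 main comparisons; each point is a gene. The listed dimer partners and related factors lie mostly below 0 in rABS against Parental. Other immediate early genes lie mostly below 0 in both of the first comparisons.

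The 3′ UTRs were searched for 3 overlapping 7-base words that had been chosen earlier from fold changes of this same shAPE1 comparison. One is TGCATTC, another shifts it by a base downstream to GCATTCT, and the remaining one, shifted the other way, reads CTGCATT. All 3 occur in the 3′ UTR of APEX1. JUN, FOSL2 and IER2 each held 1 match, that is 3 of 10 members, and 30.8% of 12539 tested genes with a 3′ UTR held at least 1. JUN and FOSL2 were higher in shAPE1 and IER2 was lower. JUND, which rose, and FOS, FOSL1 and EGR1, which fell, held no match. The part of these words in any change was not tested.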

How the data were processed

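Poly(A) RNA of 12 OE33 libraries was analysed from the deposited table of raw counts per gene. Per the submitters' processing notes, the authors used Trimmomatic 0.36, STAR 2.5.2b, featureCounts of Subread 1.5.2 and GRCh38. For the annotation release, the strand setting and multiply mapped reads, nothing is given in the sources used here. The counts were tested as deposited with edgeR 4.0.16 in R 4.3.3: filterByExpr (minimum count 10, minimum total 15), TMM scaling, 1 robust quasi-likelihood fit of all 12 libraries, and Benjamini-Hochberg adjustment over 15805 genes with a threshold of 0.05. Standard errors are the log2 change divided by the square root of F. Shape and spread used log2 CPM with a prior count of 2. CPM per kilobase used exon lengths of GENCODE release 29, promoters came from RefSeq, and 56410 of 57500 identifiers paired with a symbol. Marker and heat shock sums used CPM on unscaled totals.

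The members, the 10 lists of related genes (124 genes) and the tests were chosen with earlier results of these data known. Named genes were all members, APEX1, up to 4 called genes per list and main comparison with the lowest adjusted p, and the 3 genes closest in shape to each of JUN, FOS, FOSL1 and EGR1. For some of these, the values in the other main comparisons are given too. Some genes that the rule names are not reported here. A simulation was run for rABS against Parental only, with 14448 genes tested. In it 84% of 50 genes changed 1.5-fold, 88% of 100 changed 2-fold and 100% of 50 changed 4-fold were called. Of its 194 calls, 14 were false. In the real libraries 9454 of 15805 genes were called in this comparison, far more than were changed in the simulation. Scaling with so many changed genes was not tested, and neither was the joint fit of all groups. Alternatives were RLE and upper-quartile scaling, DESeq2 1.42.0, other filters, fits of 6 libraries, a replicate block and leaving out each library. Library totals of 15736087 to 23010377 counts set the precision.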

Additional observations from a re-analysis of the deposited data

How the results depend on the processing

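Of 70 member results, 62 kept their direction and their side of the threshold under every alternative, and of 1000 values under alternatives 14 changed sign, none of them a called change. In shCtrl against rABS, FOSL1 was -0.0089 with RLE scaling, -0.0158 with DESeq2, -0.0012 in the fit of 6 libraries, -0.0066 without rABS replicate 1 and -0.042 without shCtrl replicate 2. In shAPE1 against shCtrl, JUNB was 0.0138 with RLE scaling, 0.0341 with upper-quartile scaling, 0.0145 with DESeq2, 0.0081 in the fit of 6 libraries, 0.0602 without shCtrl replicate 2, 0.0108 without shCtrl replicate 3 and 0.0504 without shAPE1 replicate 3. In rABS against Parental, JUND was -0.0927 without Parental replicate 2 and -0.0232 without rABS replicate 2. Over all libraries left out 1 at a time, JUND ranged from -0.0927 to 0.1722 there, FOSL1 from -0.042 to 0.0331 and JUNB from -0.0945 to 0.0602. The cause was not tested. Of the rest, 7 values lost and 4 gained a call, all on leaving out 1 library and given in the text.

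Leaving out 1 library gave 6 to 7 called members in rABS against Parental (7 in all libraries), 9 to 10 for the difference between the 2 steps (10), 8 in shCtrl against rABS, 7 in shAPE1 against shCtrl and 10 in each of the other 3 comparisons. These counts pool rises and falls. In rABS against Parental, JUN was called as a rise without Parental replicate 1 (0.30) or without rABS replicate 3 (0.30). Both FOSB and EGR1 lost their falls without Parental replicate 1 or without rABS replicate 2. Over all genes the calls then ranged from 8875 to 9108 in rABS against Parental (9454 in all libraries), 4650 to 5200 in shCtrl against rABS (5767) and 4779 to 5290 in shAPE1 against shCtrl (5784). The labels do not say whether libraries with the same replicate number are paired. Of 18 correlations of their deviations from the group means, 1 was over 0.1 (range -0.167 to 0.109), which does not exclude shared handling. With the replicate number as a block, 7, 8 and 7 members were called in these 3 comparisons, and 9266, 5457 and 5485 genes. Counts of 40 to 68 for FOSB in a hairpin library limit its precision most among the members.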
